A study of Mus musculus with 9 samples.

Results

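Unmethylated CpG islands that lie inside genes, away from both gene ends, were examined in whole-genome bisulfite sequencing of mouse splenic B cells. Islands were built from the CpG positions of the deposited autosomal table as maximal segments (17 points for each CpG, minus 1 for each other base) over 200 bp with at least 6 CpGs per 100 bp. An island entered the set when the mean of its 3 library levels was under 20% and it lay inside a GRCm38 protein-coding gene and over 1 kb from every gene end. In all, 22881 autosomal islands were found, 16635 had at least 3 CpGs and 30 CpG reads (each read at each CpG counts as 1 CpG read) in every library, and 13814 of these were unmethylated. Of the unmethylated islands, 2037 lay inside genes, 11132 lay within 1 kb of a gene end and 645 lay outside protein-coding genes. Of all 4828 islands inside genes, 1034 were methylated (mean level of 80% or more), 284 were in between and 1473 were below the coverage minimum. The set was thus chosen by the CpG levels of the islands in these same libraries, so island levels are given below as a description, and their CpG density and distance from gene ends were also set by the rule. The levels of the flanks, the place of an island along its host and the start sites it holds were not used in the choice.

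CpG islands are stretches of CpG-rich DNA, most of which escape methylation while the surrounding DNA of a transcribed gene body is heavily methylated. Islands at the start of a gene are known as promoters, and islands within genes are known as sites of alternative promoters, as enhancers, and, in genes of embryonic patterning, as places held by Polycomb proteins. KMT2D is a histone methyltransferase that writes H3K4 monomethylation at enhancers and near promoters, and it is often mutated in B cell lymphoma. The title of the series places its question at the borders of CpG islands and H3K4 monomethylation.

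The B cells came from the spleens of wild-type mice (WT), mice heterozygous (HET) and mice homozygous (HOM) for Ile5482Asn in KMT2D, and were purified by negative depletion. The labels used here do not state the strain, age or sex of the mice, and the column names of both mutants carry the letters ENU, which the labels do not explain. The labels list 2 B cell samples per genotype, but the table has 1 pair of columns per genotype and does not say whether these pool the samples. B-cell-depleted blood (1 sample per genotype) was not analysed here. With 1 library per genotype there is no replicate check, and every test below compares the reads of these libraries, not the genotypes.

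Values given in threes are in the order WT, HET, HOM. Mean depth was 9.52, 13.4 and 10.2 reads per CpG, and the median island of the set held 454, 629 and 559 CpG reads. Among marker genes, the median level at the CpG-richer gene end over 7 B cell genes was 42.7%, 35.5% and 40.6%, with Pax5 the lowest (9.42%, 4.52% and 4.77%). The medians were 53.2%, 65.1% and 54.6% over 7 T cell genes, 83.2%, 67.2% and 86.1% over 3 NK cell genes, 74.1%, 75.5% and 71.0% over 5 myeloid genes, and 56.2%, 57.4% and 53.4% over the 2 measured of 3 erythroid genes. The part that a different mixture of cells plays in the differences below was not tested.

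Many islands inside genes held a transcription start. Of the 2037 islands, 758 (37.2%) held at least 1 RefSeq start, against 5 of the 1034 methylated islands inside genes (0.484%). All 758 have hosts in the promoter table, which covers the hosts of 1604 islands (47.3% of those), and the other 433 islands are counted as without a start. These 758 islands held 886 starts of 746 genes, and the 300-bp windows around them (250 bases before to 50 after the start) held a median of 25 CpGs, against 7 over all 31396 autosomal windows, as the CpG density asked of an island requires. The median level of these windows was 0.388%, 0.421% and 0.355%, a description, since the islands were chosen for low levels. Other starts of the same genes were not chosen by level: of 288 genes with another start above the coverage minimum, 98 had 1 or more that were over 50% methylated. These were 108 of 399 such starts, with median levels of 85.0%, 83.8% and 81.9%. Over all autosomal starts above that minimum, 6272 of 21812 were over 50% methylated, a similar share. Methylated starts are thus not particular to these genes.

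The next 6 sequences show such pairs in 3 genes: the start inside an unmethylated island and a methylated start of the same gene. The genes were chosen after their values were seen. Jade1 encodes a scaffold of a histone acetyltransferase complex, Dnmt1 the maintenance DNA methyltransferase, which is known for an oocyte-specific start upstream of its somatic one, and Cdkn1a the cell cycle inhibitor p21. Sequences are RefSeq windows on GRCm38.p6, 5′ to 3′ on the strand of the gene, with every CpG in capitals.
Jade1, start inside an island (chr3:41563501-41563800, plus strand): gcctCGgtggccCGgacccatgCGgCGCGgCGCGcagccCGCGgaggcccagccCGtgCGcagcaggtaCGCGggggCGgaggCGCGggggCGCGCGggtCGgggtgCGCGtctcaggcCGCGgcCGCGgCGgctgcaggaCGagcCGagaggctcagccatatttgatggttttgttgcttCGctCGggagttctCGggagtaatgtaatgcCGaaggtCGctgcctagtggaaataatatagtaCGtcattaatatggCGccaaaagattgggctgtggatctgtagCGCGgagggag
Jade1, upstream start (chr3:41555484-41555783, plus strand): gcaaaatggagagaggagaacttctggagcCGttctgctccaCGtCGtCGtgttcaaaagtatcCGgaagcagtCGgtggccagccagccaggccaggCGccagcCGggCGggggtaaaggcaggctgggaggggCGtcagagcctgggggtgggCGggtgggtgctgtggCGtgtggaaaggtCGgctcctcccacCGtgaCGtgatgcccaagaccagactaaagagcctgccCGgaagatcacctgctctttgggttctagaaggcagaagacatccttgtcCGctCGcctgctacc
Dnmt1, start inside an island (chr9:20952574-20952873, minus strand): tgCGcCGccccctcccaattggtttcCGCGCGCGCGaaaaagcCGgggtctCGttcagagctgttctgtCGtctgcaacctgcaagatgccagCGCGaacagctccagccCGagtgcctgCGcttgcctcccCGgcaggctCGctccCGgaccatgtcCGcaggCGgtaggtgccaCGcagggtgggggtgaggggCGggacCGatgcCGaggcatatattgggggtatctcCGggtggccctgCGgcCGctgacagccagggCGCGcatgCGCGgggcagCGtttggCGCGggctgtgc
Dnmt1, upstream start (chr9:20959839-20960138, minus strand): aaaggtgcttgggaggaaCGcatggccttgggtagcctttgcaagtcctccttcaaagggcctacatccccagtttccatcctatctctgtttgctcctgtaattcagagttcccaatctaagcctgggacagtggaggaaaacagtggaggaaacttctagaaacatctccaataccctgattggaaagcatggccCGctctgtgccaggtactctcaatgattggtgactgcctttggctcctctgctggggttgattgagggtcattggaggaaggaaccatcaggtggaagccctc
Cdkn1a, start inside an island (chr17:29093519-29093818, plus strand): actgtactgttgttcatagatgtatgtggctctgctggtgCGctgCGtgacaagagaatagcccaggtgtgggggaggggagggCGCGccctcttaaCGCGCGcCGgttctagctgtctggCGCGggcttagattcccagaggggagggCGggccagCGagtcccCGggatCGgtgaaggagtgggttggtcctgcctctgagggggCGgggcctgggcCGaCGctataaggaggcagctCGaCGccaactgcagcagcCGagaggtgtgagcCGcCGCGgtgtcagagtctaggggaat
Cdkn1a, upstream start (chr17:29090729-29091028, plus strand): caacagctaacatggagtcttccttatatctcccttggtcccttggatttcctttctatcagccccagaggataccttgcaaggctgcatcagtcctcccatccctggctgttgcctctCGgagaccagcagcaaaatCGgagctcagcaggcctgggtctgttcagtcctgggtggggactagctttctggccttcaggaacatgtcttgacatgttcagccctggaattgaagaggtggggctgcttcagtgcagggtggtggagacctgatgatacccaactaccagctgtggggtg

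The Jade1 window inside the island held 38 CpGs and stood at 0.877%, 0% and 0.426% on 228, 424 and 235 CpG reads. The upstream Jade1 window, 8017 bp away and with 18 CpGs, stood at 95.2%, 96.2% and 90.9% on 62, 78 and 77 CpG reads. The paired Jade1 windows lie at opposite ends of the scale although the upstream one is itself rich in CpGs. At Dnmt1 the window inside the island (33 CpGs) stood at 0.270%, 0% and 0% on 370, 487 and 495 CpG reads, and the window 7265 bp upstream (2 CpGs) at 97.9%, 94.9% and 88.5% over 47, 78 and 61. At Cdkn1a the window inside the island (23 CpGs) stood at 0%, 0.633% and 0% on 156, 158 and 117 CpG reads, and the window 2790 bp upstream (2 CpGs) at 93.3%, 96.8% and 85.9% over 75, 63 and 78. In all 3 genes the upstream window was lowest in HOM, and its 95% Wilson intervals, which cover counting error only, overlapped between WT and HOM. Over all 108 such methylated starts, HOM was below WT in 73.

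Motifs of short length, 3 in number, were searched on both strands of the windows. GGGCGG, the core of the GC box, was found in 684 of the 886 windows inside islands (77.2%) and in 36.0% of all windows. TATAAA, the core of the TATA box, was found in 4.18% and 13.6%, and CCAAT in 29.9% and 37.3%. GGGCGG itself holds a CpG and the windows inside islands are CpG-rich by the rule, so these shares describe the windows, and no background matched on CpGs was used. Of the printed windows, the Dnmt1 and Cdkn1a windows inside islands held 2 matches to GGGCGG each, the Jade1 one held 1 and the upstream Jade1 one 2, while none held TATAAA.

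Islands inside genes lay toward the 5′ end of their hosts. The 2037 islands lay in 1726 genes, 8.35% of 20661 autosomal protein-coding genes, and the median host spanned 38262 bp, against 17491 bp over all such genes. For the 1604 islands whose host strand is known from the promoter table, the median position was 26.7% of the gene length from the 5′ end, against 71.4% for 822 methylated islands inside genes and 64.3% for 216 in between. The median distance from the 5′ end was 5910 bp, and 45.9% lay within 5 kb of it, against 10.1% of the methylated islands. From the nearest gene end of any kind the median distance was 3479 bp, 795 islands lay over 5 kb away and 77 over 50 kb away. Exons and introns are not part of the annotation used here.

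**Figure D1:**
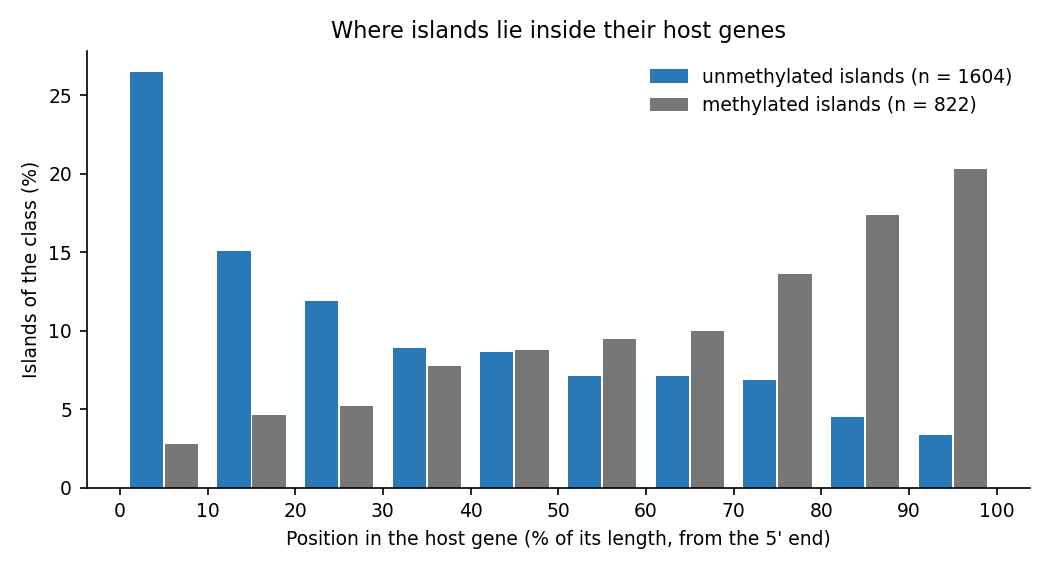
Share of islands (%, y axis) in each 10% of the host gene's length from its 5′ end (%, x axis), for 1604 unmethylated and 822 methylated islands inside genes with a known host strand. The first 10% holds 26.5% of the unmethylated islands, and the bars of the classes run in opposite directions along the gene.

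The set had a median length of 525 bp, 53 CpGs and 9.86 CpGs per 100 bp, against 636 bp, 66 CpGs and 10.2 for gene-end islands. The median island level was 1.12%, 1.08% and 0.959% (mean 2.77% ± 3.99, 2.76% ± 3.95 and 2.57% ± 3.84, SD over 2037 islands), and 1677 islands (82.3%) had a mean level under 5%. Islands with a RefSeq start were longer (median 659 bp against 434 bp) and lower (median 0.441%, 0.427% and 0.411% against 2.12%, 2.04% and 1.76%) than the 1279 without one. The bodies of the host genes stood at 81.2%, 80.7% and 77.8%, pooled over 1630 genes, and HOM was below WT in 1459 of them.

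The longest island, 4338 bp with 336 CpGs, filled most of Tchh (chromosome 3, 93443614 to 93447951), a gene of 6748 bp for trichohyalin, a structural protein of the hair follicle. It held no RefSeq start and stood at 2.15%, 2.06% and 1.64%. The shores on either side of it stood at 83.3% to 93.9%. The next longest lay in Zfp536 (3835 bp), a zinc finger repressor gene, Pdgfa (3301 bp), a growth factor gene, Ptch1 (3095 bp), the Hedgehog receptor gene, Hivep2 (3051 bp), a zinc finger gene, and Ubtf (2943 bp), a factor of ribosomal RNA transcription. All 5 of these held a start, and their levels ran from 0.130% to 3.31% over the 3 libraries.

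Of the hosts, 1485 held 1 island, 192 held 2 and 49 held 3 or more. Sptbn4, for the beta-IV spectrin of axons, held 8, Gata4, a heart and gut transcription factor gene, held 6, Pax6, a master regulator of the eye, held 6, Srcin1, a Src inhibitor of neurons, held 5, and Shank1, a synaptic scaffold gene, held 4. The 8 islands of Sptbn4 (91322 bp, chromosome 7) lay between 27361552 and 27409141, ranged from 0% to 12.3%, and 7 of them had a shore above 50%, the highest at 90.6%. The 6 islands of Pax6 (chromosome 2, 105672528 to 105682387) ranged from 0.343% to 12.1%, and none of their measured borders or shores exceeded 20%. At Gata4 (chromosome 14, 63240596 to 63269451) the islands ranged from 1.29% to 8.42% and the shores from 4.53% to 44.8%. So the islands of Pax6 sat within a broader stretch of low methylation in every library. The flanks of the Gata4 islands were mixed, from low to partly methylated, while most islands in Sptbn4 were flanked by methylated DNA.

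Away from the edge, methylation rose over about 2 kb. In WT the first 100 bp outside the edge stood at 6.75%, the bin of 400 to 500 bp at 30.3%, and the bin of 1900 to 2000 bp at 70.6%. The WT curve passed 50% at 833 bp, HET at 836 bp and HOM at 897 bp. For gene-end islands the same crossing lay at 726, 729 and 787 bp. Islands with a start crossed at 730, 723 and 823 bp and those without at 876, 872 and 967 bp. When each curve was read at 50% of the library's own open sea level (CpGs over 4 kb from every island, which stood at 81.6%, 80.9% and 78.2%), the crossings inside genes lay at 604, 599 and 621 bp.

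**Figure D2:**
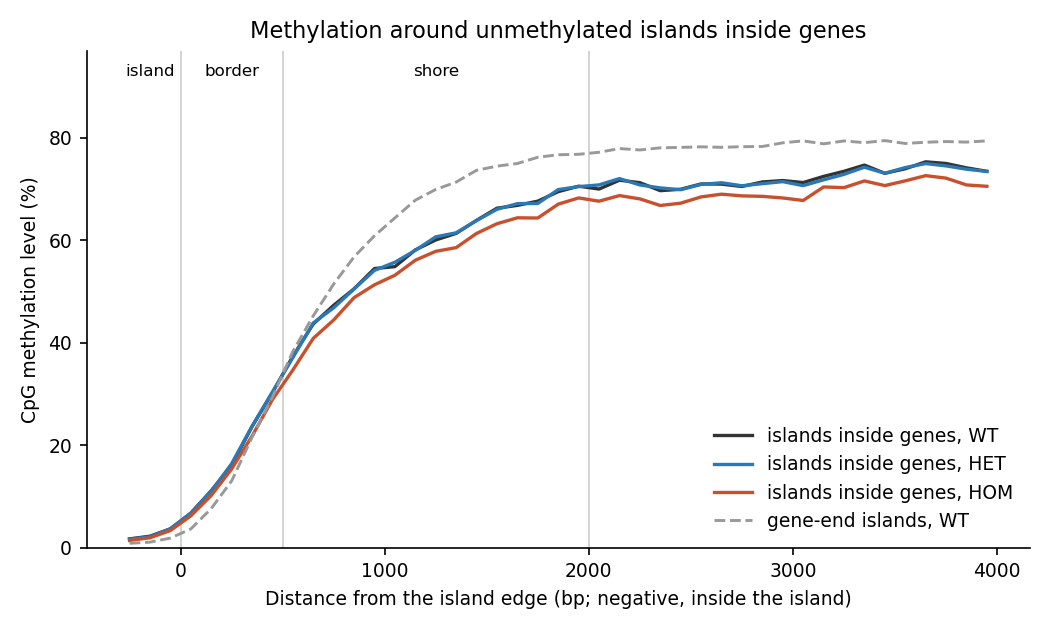
CpG methylation level (%, y axis) by distance from the island edge in 100-bp bins (bp, x axis; negative values are inside the island), pooled over the islands inside genes for each library (solid lines), with gene-end islands in WT (dashed). Each CpG is counted for its nearest island. The WT and HET lines run together, and HOM lies below them in every bin, also inside the island. The dashed line starts lower and ends higher, at 76.8% against 70.6% in the bin of 1900 to 2000 bp.

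The flanks were then measured as borders (0 to 500 bp from an edge) and shores (500 to 2000 bp). Of 4074 edges, 3823 borders and 3638 shores had 3 CpGs and 30 CpG reads in every library. Borders inside genes averaged 19.9%, 20.04% and 18.7% (SD over borders 21.2, 21.3 and 20.2 points), above gene-end borders by 2.79 points in WT (95% counting interval 2.67 to 2.91), 3.06 in HET and 3.06 in HOM. Shores averaged 61.8%, 61.5% and 58.8% (SD 27.7, 27.3 and 26.5 points), a difference from gene-end shores of -6.05 points in WT (interval -6.16 to -5.94). The flanks were also uneven in direction of transcription: beside islands with a start, the upstream border averaged 20.5%, 20.7% and 19.3% over 708 borders, and the downstream border 14.1%, 14.0% and 12.8% over 727.

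Borders and shores stood lower on average in HOM than WT, and in points the difference was greater in shores. The mean difference between HOM and WT was -1.18 points over borders (interval -1.33 to -1.03) and -3.05 points over shores (interval -3.20 to -2.90). HOM was below WT in 2124 of 3823 borders and in 2497 of 3638 shores. Islands themselves differed by -0.206 points on average, a value the choice of islands did use. As ratios of the pooled levels, HOM stood at 0.934 of WT in borders and 0.955 in shores. Shores beside islands with a start differed by -3.77 points (interval -4.02 to -3.52) and those without by -2.58 points (interval -2.76 to -2.39). With every library scaled to the open sea of WT, the means became -0.391 points for borders (interval -0.544 to -0.238) and -0.475 points for shores (interval -0.622 to -0.328).

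The same mean over gene-end borders was -1.45 points, so borders inside genes differed less by 0.274 points (interval 0.109 to 0.439). At matched levels, borders of 20 to 50% differed by -1.60 points inside genes (957 borders) and by -2.73 points at gene ends (4741 borders), and those of 10 to 20% by -0.928 and -1.68 points. Below 10% and above 50% the intervals of the difference between the classes included 0 (-0.103 to 0.157 and -0.663 to 0.806 points). After dividing counts by the CpGs on a typical read, the interval over all levels also included 0 (-0.073 to 0.551). Against islands outside genes, borders inside genes differed more, by -0.647 points (interval -0.973 to -0.320). At matched levels this held for borders of 20 to 50% (-1.22 points, interval -2.09 to -0.356). It also held for those of 50% and over (-1.94 points, interval -3.32 to -0.564). In borders under 10% and of 10 to 20% the intervals included 0 (-0.492 to 0.066 and -0.936 to 0.488 points).

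**Figure D3:**
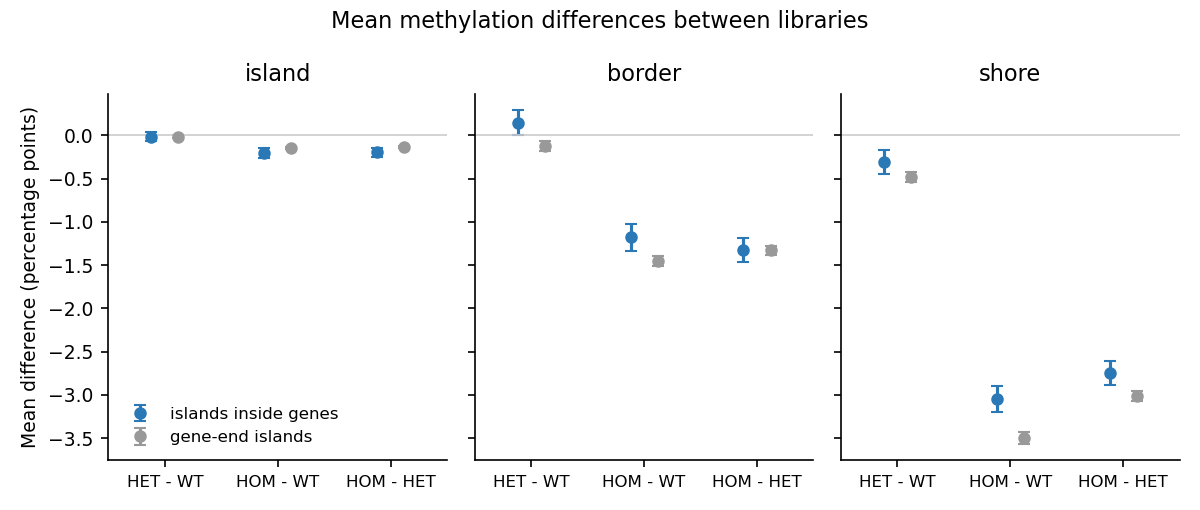
Mean difference between libraries (percentage points, y axis) in islands, borders and shores for each comparison (x axis), for islands inside genes and gene-end islands, with 95% counting intervals as bars. HOM minus WT is -0.206, -1.18 and -3.05 points in the islands, borders and shores inside genes, and HET minus WT stays within 0.5 points of 0 in both classes.

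Single regions were called when Fisher's exact test on the CpG reads gave an adjusted p under 0.05 (Benjamini-Hochberg over all regions of the zone) and the difference was at least 10 points. Between HOM and WT, 20 borders inside genes were called higher and 42 lower, where 0.336% and 1.06% of all 25875 borders were called higher and lower (1.4% in either direction), so the share of lower calls (1.10%) was close to the background and that of higher calls was 0.523%. In shores 64 were called higher and 249 lower (background 1.17% and 6.83% of 25639, 8.01% together), and after scaling to the open sea the split was 103 higher and 109 lower. CpGs on 1 read are not independent, and after such a division of the counts none of the borders, shores or islands inside genes was called in any comparison. Beside the 62 called borders, which lay at 60 islands, the opposite border was measured in 57 cases and differed in the same direction in 41. It was itself called in that direction in 4, and an island with both borders called counts from each side. The agreement beside borders that were not called is not given here, so nothing is read from the 41.

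The borders with the greatest differences lay on both sides of 0. Cnot8 encodes a deadenylase of the CCR4-NOT complex, and its border (chromosome 11, 58103280 to 58103779) stood at 44.0%, 24.2% and 14.3% on 191, 178 and 210 CpG reads. The difference between HOM and WT was -29.7 points (interval -37.9 to -21.0, adjusted p = 1.79e-07, Fisher's exact test), and all 14 CpGs with at least 5 reads in both libraries were lower in HOM. The other border of this island, which holds 3 starts, stood at 26.2%, 16.9% and 13.7%. Scp2, for a sterol carrier protein, had the most negative difference among called borders that had 60 or more CpG reads in each library compared: its border (chromosome 4, 108117783 to 108118282) stood at 56.0%, 60.3% and 22.5% on 84, 78 and 89 CpG reads, a difference of -33.5 points (interval -46.0 to -19.1). HET was close to WT at Scp2 and between WT and HOM at Cnot8.

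The border at Arhgap27, for a GTPase-activating protein, stood at 65.3%, 50.5% and 33.1% on 95, 216 and 151 CpG reads, and that at Npas3, for a brain transcription factor, at 74.8%, 49.4% and 44.6%. Cfap97, for a cilium-associated protein, stood at 53.8%, 30.8% and 25.3%. At these 3 borders HET lay between WT and HOM. At Sh3pxd2a, for the podosome scaffold Tks5, the values were 71.5%, 65.9% and 43.5%, with 11 of 11 CpGs lower, and at Pam, for a peptide-amidating enzyme, 41.2%, 33.0% and 13.6%.

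Among borders called higher, Rinl, for a Ras and Rab interactor, stood at 16.4%, 25.9% and 46.2% on 110, 170 and 130 CpG reads (chromosome 7, 28796136 to 28796635). The difference was 29.8 points (interval 18.2 to 40.1, adjusted p = 5.68e-04, Fisher's exact test), and all 10 CpGs with 5 reads were higher in HOM. The border of Hoxd4, a homeobox gene of body patterning, stood at 15.8%, 41.1% and 39.4% on 76, 107 and 109 CpG reads, so that both mutant libraries were above WT. Prkar1a, for a regulatory subunit of protein kinase A, stood at 18.9%, 31.0% and 41.0%, beside an island with 4 starts whose other border stood at 0%, 0.476% and 0.704%. Unkl, for a zinc finger protein, stood at 9.64%, 27.7% and 30.4%, Npm2, for an oocyte histone chaperone, at 18.3%, 27.1% and 41.7%, Rundc3a at 34.1%, 43.1% and 53.8% and Kazald1 at 9.03%, 20.2% and 28.3%. At Celf4, for an RNA-binding protein of neurons, the pooled values were 17.8%, 16.3% and 44.0%, but of 5 CpGs with 5 reads 2 were higher and 1 lower, and the difference in the first 200 bp was -1.83 points.

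**Figure D4:**
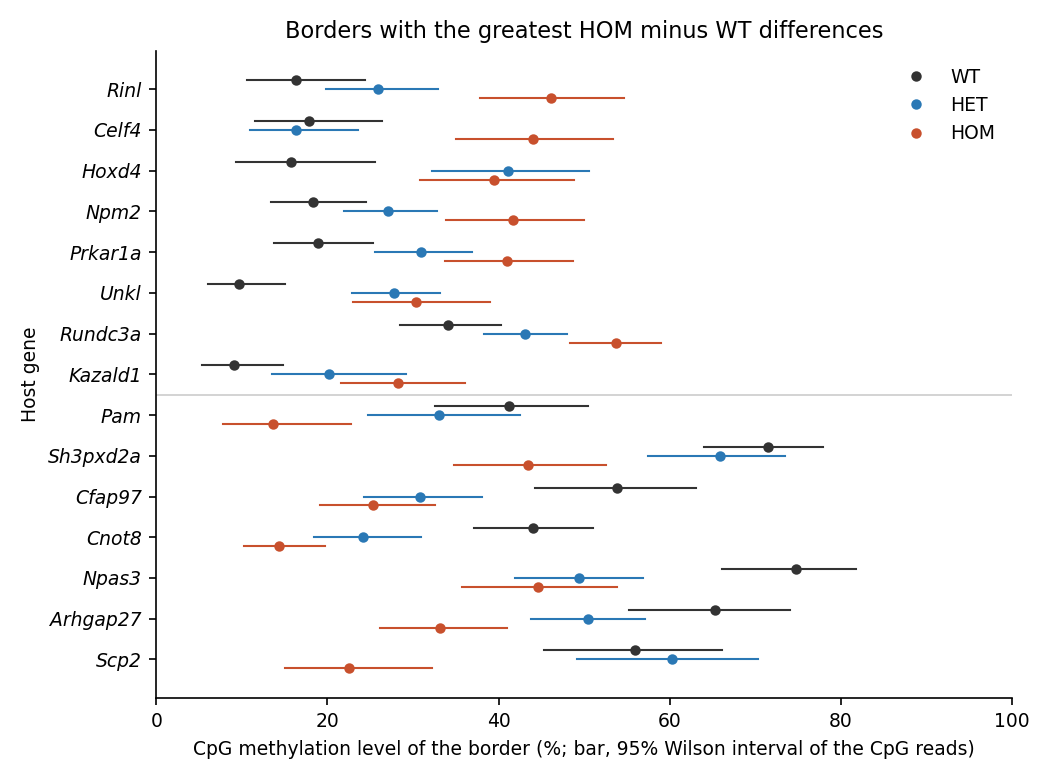
CpG methylation level (%, x axis) of 15 named borders inside genes (y axis, by host gene), in WT, HET and HOM, with 95% Wilson intervals of the CpG reads as bars. Below the line HOM lies under WT, from Pam (41.2% and 13.6%) to Scp2 (56.0% and 22.5%), and above it HOM lies over WT, from Kazald1 (9.03% and 28.3%) to Rinl (16.4% and 46.2%).

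In shores, the lowest values relative to WT were at Slc4a2, for an anion exchanger, at 43.5%, 14.4% and 10.9% on 62, 90 and 64 CpG reads, with 6 of 6 CpGs lower. Borcs5, for a subunit of a lysosome positioning complex, stood at 77.7%, 54.5% and 45.8%, Tasor2 at 74.7%, 52.9% and 44.3%, and Lmo4, for a LIM domain protein, at 81.4%, 84.7% and 53.2%. At Zfp64 the pooled shore values were 61.2%, 31.8% and 36.1%, but of 4 CpGs with 5 reads 2 were higher and none lower, and the mean over CpGs differed by -6.33 points. The highest was at Rarg, the gene of a retinoic acid receptor, at 33.1%, 31.4% and 59.3% on 133, 194 and 118 CpG reads, with 9 of 9 CpGs higher. Wnt5a, a Wnt ligand gene, stood at 44.4%, 49.3% and 70.4%, Zbtb7c at 24.7%, 36.8% and 48.7%, and Shox2, a homeobox gene of limb and heart, at 8.11%, 20% and 30.4%. A shore of Sptbn4 stood at 56.0%, 60.7% and 80.1% on 298, 318 and 326 CpG reads, and 20 of its 22 CpGs were higher in HOM (Fisher's exact test, adjusted p = 1.25e-07). These named shores hold both directions although HOM was lower on average.

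Inside the islands, whose levels chose the set, between HOM and WT 9 were past the same thresholds higher and 10 lower, beside 0.745% and 1.39% of all 16635 islands (2.13% in either direction), and nothing is read from that share. The island in Il12rb1, the gene of an interleukin 12 receptor chain (chromosome 8, 70816821 to 70817029), stood at 31.9%, 0.890% and 1% on 210, 337 and 200 CpG reads. All 19 of its CpGs with 5 reads were lower in HOM, and WT alone was high. Rasa4, a Ras GTPase-activating protein gene, stood at 27.2%, 13.1% and 8.43%, F12, for coagulation factor XII, at 26.2%, 16.6% and 12.6%, and Cilp2 at 26.4%, 16.0% and 13.4%. In the other direction, Nr2f6, an orphan nuclear receptor gene, stood at 0.904%, 10.8% and 19.5%, Fbxo17 at 13.7%, 11.3% and 32.5%, Ephb2, an ephrin receptor gene, at 6.61%, 8.90% and 26.5%, and Dll3, a Notch ligand gene, at 7.75%, 16.8% and 24.5%. Some named regions lie near one another. The islands in Cilp2, Il12rb1 and Nr2f6 start at 69885953, 70816821 and 71375736 on chromosome 8. Those in Dll3 and Fbxo17 start at 28298853 and 28732482 on chromosome 7. Near these lie the Rinl border (28796136) and the Sptbn4 shore (27365044) named above, also higher in HOM. Whether such neighbours differ independently was not tested.

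HET stood close to WT. The mean difference between HET and WT was 0.146 points over borders (interval -0.001 to 0.292) and -0.303 points over shores (interval -0.442 to -0.164), and scaling to the open sea turned the latter to 0.201 points. In borders 16 were called higher and 23 lower (background 0.359% and 0.417%, 0.777% together), and in shores 49 higher and 54 lower (background 1.2% and 1.52%, 2.72% together). In the islands 5 were higher and 4 lower (background 0.818% and 0.469%, 1.29% together).

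Among called borders that had 60 or more CpG reads in each library compared, the greatest difference between HET and WT was at Stk25, a kinase gene (chromosome 1, 93635979 to 93636478), at 35.7%, 67.9% and 35.1% on 115, 162 and 188 CpG reads. HET alone was high there, in 11 of 12 CpGs against WT and in 12 of 12 against HOM (adjusted p = 2.40e-04 and 6.08e-06, Fisher's exact test). Dnaaf1, for assembly of ciliary dynein arms, stood at 13.9%, 40.8% and 48.9%, and Smg9, for nonsense-mediated decay, at 26.5%, 49.4% and 30%. Ssc4d stood at 43.8%, 74.7% and 61.6%, but of 5 CpGs with 5 reads 1 was higher and 1 lower. In the other direction, Nol4l stood at 31.2%, 4.84% and 21.1%, Tdrd6, a Tudor domain gene of germ cells, at 88.9%, 62.6% and 64.1%, another island of Zfp536 at 48.9%, 24.6% and 33.3%, and Lrrfip1 at 57.9%, 33.8% and 55.4%. In the mean over CpGs the HET minus WT difference at Lrrfip1 was -3.46 points and at Npas3 -8.73 points, both under the 10-point limit.

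HOM against HET gave values near those of HOM against WT, and these comparisons share the HOM library. The means were -1.32 points over borders (interval -1.46 to -1.18) and -2.75 points over shores (interval -2.88 to -2.61). Here 16 borders were called higher and 47 lower (background 0.267% and 1.1%, 1.36% together), and 37 shores higher and 216 lower (background 0.878% and 6.08%, 6.96% together), which became 68 and 112 after scaling. In the islands 5 were higher and 4 lower (background 0.529% and 1.34%, 1.87% together). At Dtx1, for a regulator of Notch signalling with a role in B cells, the border (chromosome 5, 120693915 to 120694414) stood at 40.0%, 5.68% and 42.5%, with only 30 CpG reads in WT against 88 and 80. Ccdc61 stood at 68.2%, 84.7% and 58.3%, Vwa1, for a matrix protein, at 78.1%, 84.2% and 57.9%, Nbea, a neurobeachin gene, at 44.8%, 46.6% and 21.3%, and Pigz, for a GPI anchor enzyme, at 37.3%, 26.0% and 45.7%. Nbea was low in HOM at 11 of 12 CpGs, and Pigz was high in HOM at 11 of 14.

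Among the gene lists, developmental transcription factor genes held these islands most often. Of 133 developmental transcription factor genes 79 held 1 or more (59.4%), against 8.35% of all genes. The shares were 46 of 85 for genes known for alternative promoters (54.1%), 49 of 114 for neuronal adhesion, channel and synapse genes (43.0%), 14 of 40 for germinal centre and activation genes, 36 of 110 for developmental ligands and receptors and 19 of 60 for tumour suppressors. They were 8 of 32 for DNA methylation genes, 6 of 27 for erythroid genes, 11 of 55 for chromatin regulators, 6 of 35 for T cell genes and 4 of 28 for H3K4 methyltransferases and their partners. They were 4 of 39 for B cell identity genes (10.3%), 4 of 41 for imprinted genes, 1 of 36 for myeloid genes and 0 of 15 for NK cell genes. Longer genes have more room for an island, and gene length was not matched.

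The 146 islands of developmental transcription factors were short (median 414 bp), and 11 of them (7.53%) held a start, with hosts that are not in the promoter table (such as Gata4) counted as without. Their shores had a median of 14.1%, 16.1% and 14.3% over 222 shores, against 71.0%, 70.8% and 67.1% over all 3638. HOM was below WT in 127 of the 222 shores, with a median difference of -0.46 points against -2.84 over all, and 2 shores were called higher (0.901%) and 6 lower (2.70%), where 1.17% and 6.83% of all shores were called. Levels were not matched in this comparison. Over the whole set, the mean HOM minus WT difference was -0.205 points in shores under 10% and -0.915 points in those of 10 to 20%. It was -1.70 points in shores of 20 to 50% and -3.84 points in those of 50% and over. The longest islands of the developmental list lay in Ebf3 (2483 bp), Tfap2c (2452 bp) and Nr2f2 (2413 bp), whose measured shores stood between 1.20% and 17.8%. Of the list's 265 borders, which had a WT median of 8.05%, 0 were called higher and 2 lower between HOM and WT. Over all borders 0.336% and 1.06% were called higher and lower. The 2 were at Tbx5, a heart and limb factor, at 31.2%, 18.8% and 15.4%, and at Nr2e1, a neural stem cell receptor gene, at 15.1%, 17.02% and 2.61%. Gli2, an effector of Hedgehog signalling, stood at 58.7%, 34.8% and 45.5% and was called between HET and WT. Between HOM and HET, Pax1 (8.93%, 20% and 4.88%), Pax7 (8.20%, 13.9% and 1.61%) and Foxa1 (9.32%, 15.4% and 0.893%) were called lower and Hoxb3 (24.0%, 15.5% and 29.1%) higher.

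The 70 islands of neuronal genes had shores with medians of 68.8%, 68.0% and 62.7%, and between HOM and WT 10 of 128 shores were called lower (7.81%) and 0 higher, where 6.83% and 1.17% of all shores were called. Their longest lay in Pcdh17 and Pcdh10, protocadherin genes, and in Mapt, the gene of the microtubule protein tau (1883 bp, at 1.98%, 0.978% and 0.793%). In borders, Gabra5, a GABA receptor subunit gene, stood at 43.8%, 54.4% and 31.4%, with 8 of 8 CpGs lower in HOM than in HET. Nlgn2, a synaptic adhesion gene, stood at 60.2%, 59.1% and 43.6%, and Cacna1c, a calcium channel gene, at 16.8%, 6.33% and 6.61%. Auts2 stood at 19.2%, 31.8% and 57.5%, on 52, 44 and 40 CpG reads and 4 CpGs, and the mean over its CpGs differed by 6.65 points.

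Genes known for alternative promoters included all 3 Runx genes, transcription factors of blood and bone with a distal and a proximal promoter each. The Runx3 island (chromosome 4, 135152076 to 135153102, 24888 bp from the nearest gene end) held a start and stood at 0.806%, 1.41% and 1.43%. One border of it stood at 67.7%, 66.7% and 44.9% on 164, 180 and 156 CpG reads, with 14 of 15 CpGs lower in HOM than in WT (adjusted p = 0.00766, Fisher's exact test), while the other border stood at 0%, 1.11% and 0.669%. The islands of Runx1 (2073 bp, at 1.05%, 0.985% and 1.89%) and Runx2 (2185 bp, at 0.610%, 0.502% and 0.163%) had no called border. Rara, a retinoic acid receptor gene, stood at 24.9%, 27.0% and 43.2% at a border, with 13 of 16 CpGs higher in HOM than in WT, but its first 200 bp differed by -1.61 points. Plec, for the cytoskeletal linker plectin, stood at 30.1%, 48.8% and 44.0% and was called between HET and WT, with 8 of 8 CpGs higher.

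**Figure D5:**
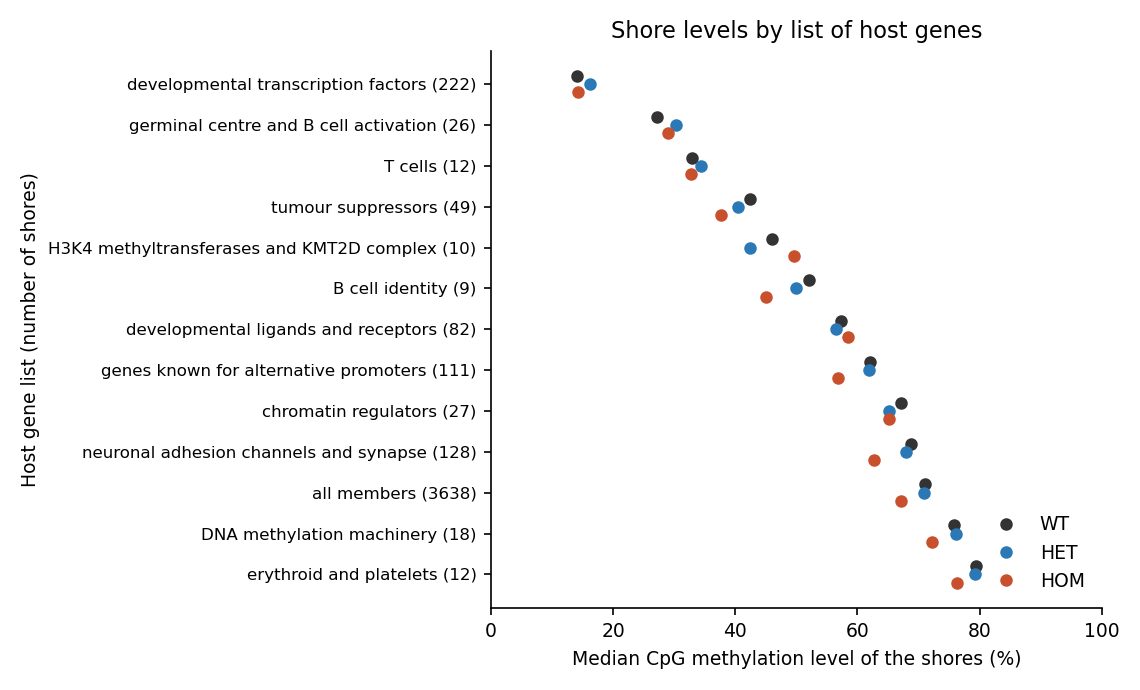
Median CpG methylation level of the shores (%, x axis) of islands inside genes for each list of host genes (y axis, with the number of shores) in WT, HET and HOM; lists with at least 9 shores are drawn. The shores of developmental transcription factors lie lowest, at 14.1%, 16.1% and 14.3%, and all 3638 shores have medians of 71.0%, 70.8% and 67.1%.

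The share of B cell identity genes with such an island was near that of all genes. Their list held 5 islands, among them islands of Fcmr, the IgM Fc receptor gene (1.38%, 6.34% and 3.24%), of Pou2f2, for the factor Oct2 (9.49%, 6.74% and 15.9%), and of Ebf1, an early B cell factor gene (12.8%, 11.9% and 8.97%). None of the list's 9 measured borders was called, where 1.4% of all borders were called between HOM and WT. Of its 9 measured shores 1 was called higher and 1 lower between HOM and WT, beside 1.17% and 6.83% of all shores. In the germinal centre list the shores had medians of 27.2%, 30.4% and 29.0%, and the longest islands lay in Nfatc1, Egr2 and Foxp1. Of that list's 29 measured borders 1 was called, lower in HOM than in HET, where 1.1% of all borders were called lower. Nothing is read from this single call. It was at Nfkb2, the gene of an NF-kappa-B subunit, at 57.9%, 68.8% and 50.3%, with 8 of 10 CpGs lower in HOM than in HET. Besides Runx3, the longest islands of the T cell list lay in Satb1, a chromatin organiser gene (0%, 0.926% and 0%), and Ets1, a lymphoid transcription factor gene (0%, 0% and 0.369%), whose borders stood at 0% on one side in every library. In the tumour suppressor list, a border at Axin2, a Wnt pathway inhibitor gene, stood at 21.1%, 9.14% and 15.6% and was called between HET and WT.

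Kmt2d itself held 1 island of the set (chromosome 15, 98871274 to 98872361, 1088 bp, 124 CpGs), 1716 bp from the 5′ end of the gene and without a RefSeq start. It stood at 0.236%, 0% and 0.281%, its borders stood between 0% and 0.935%, and its shores at 9.05%, 15.5% and 11.8% on one side and 56.1%, 49.5% and 63.5% on the other. No border there was called in any comparison, nor any shore between HOM and WT. Kdm6b, an H3K27 demethylase gene counted with the partners of KMT2D, and Dpy30, a shared subunit of the H3K4 methyltransferase complexes, held islands at 0.549%, 0.361% and 0.530% and at 0.0958%, 0.236% and 0.234%. Among DNA methylation genes, 7 of 10 islands held a start, and the longest, of Dnmt3a (2102 bp), stood at 0.148%, 0.297% and 0.303%.

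The imprinted list held 4 islands. At Commd1 a border stood at 30.1%, 20.7% and 13.5% and was called lower in HOM than in WT, but its first 200 bp differed by 0.780 points. The Igf2 island, in a growth factor gene, stood at 2.37%, 1.82% and 1.997%. The island of Grb10, for a growth-limiting adaptor protein, stood at 12.4%, 18.3% and 28.9%, and its mean of 19.9% was just inside the 20% limit, as were Wnk4 (19.5%, 18.2% and 22.1%) and Gpr158 (19.6%, 20.9% and 19.4%). Just outside it lay Khdc3 (25.6%, 20.4% and 14.3%), Ccdc30 (21.9%, 12.6% and 25.9%) and Fbln7 (16.8%, 26.9% and 17.5%). Of the 2037 islands 127 had a mean level of 10 to 20%.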

How the data were processed

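The deposited table gives, per the file headers, methylated and covering read counts for each autosomal CpG in WT, HET and HOM B cells. The submitters' processing notes name mm10, Trim Galore 0.2.8, Bismark, Bowtie2, BWA 0.7.13, MethylDackel and Picard (1.91 and 2.3.0), without saying which made these counts. Islands, flanks and pooled levels (methylated over covering counts) were computed with Python 3.11.15, NumPy 2.4.6, pandas 2.3.3, SciPy 1.17.1 and numba 0.67.0. Flanking CpGs were given to the nearest island only, and a read of 150 bp that crosses an edge counts on both sides. Regions needed 3 CpGs and 30 CpG reads per library. Two-sided Fisher's exact tests with Benjamini-Hochberg adjustment over each zone, checked on simulated counts, needed an adjusted p under 0.05 and 10 points. Intervals (95%; Wilson, Newcombe, or normal for means) cover counting error only, and CpG reads of 1 molecule are linked. Gene positions and promoter windows are RefSeq's on GRCm38.p6, and a nested island carries its shortest host's name. The labels give no batch, date or lane.

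Named genes are the 6 longest islands, the 5 genes with most islands (ties by summed length), and those called regions with the greatest differences among the ones with 60 or more CpG reads in each of the compared libraries: 8 borders, 5 shores and 4 islands in each direction between HOM and WT, and 5 borders in each direction in the other comparisons. Up to 3 longest islands and every called border of each of 15 gene lists, the 3 islands on either side of the 20% limit, and Kmt2d complete them. Of these, 1 border is not reported here. The islands, lists and comparisons were chosen with earlier results of these data known. Alternatives changed coverage, border width, level limit, distance from gene ends, size of difference, averaging, scaling and the weight of linked CpGs.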

Additional observations from a re-analysis of the deposited data

How the results depend on the processing

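No paired analysis was possible because the table has 1 pair of columns per genotype and the columns carry no replicate number, and for the same reason no replicate could be left out. Counts below are given as higher and lower in the order HOM minus WT, HET minus WT, HOM minus HET. The shares over all borders, shores and islands under these settings are not given here. The counts therefore show only how the calls depend on the setting, and nothing particular to the islands inside genes is read from them. At a minimum of 20 points, called borders were 10 and 23, 10 and 11, 6 and 22, shores 12 and 38, 6 and 17, 7 and 23, and islands 0 and 1, 1 and 1, 1 and 1. With counts divided by the CpGs that 1 read covers, all 18 counts were 0, the difference from gene-end borders was 0.239, 0.243 and -0.00380 points (intervals including 0), and the mean over islands was -0.225 points for HOM minus WT (interval including 0) and 0.0503 points for HET minus WT. Over 5 kb from every gene end, where 795 islands remained, borders were 9 and 17, 8 and 10, 10 and 21, shores 25 and 99, 18 and 22, 18 and 77, islands lower 3, 1 and 1, islands higher 0 for HET minus WT, and the HET minus WT island mean was 0.0212 points. Borders of 0 to 1000 bp gave 49 and 188, 57 and 72, 48 and 202, with a HET minus WT mean of -0.165 points, below 0 over its whole interval, and borders of 0 to 200 bp gave 0 and 1, 0 and 0, 0 and 1. Islands under 10% gave islands 2 and 1, 3 and 0, 0 and 1, and no minimum difference gave islands 19 and 47, 25 and 29, 19 and 43. The HET minus WT border mean was above 0 over its whole interval at 100 CpG reads (0.197 points), under 10% (0.170), without a RefSeq start (0.218), scaled to the open sea (0.249) and with protein-coding gene ends alone (0.181). The last setting, chosen after seeing the data like the linked counts and the split by start, gave 10 islands higher for HET minus WT, 7 lower for HOM minus HET and a HET minus WT island mean of 0.00372 points. Scaling gave shores 103 and 109 for HOM minus WT and 68 and 112 for HOM minus HET, and a HET minus WT shore mean of 0.201 points. In borders of 20 to 50% the HET minus WT difference from islands outside genes was 0.215 points instead of -0.0861. Of the named regions, 74 lost their call with divided counts. In the first 200 bp 2 of 39 kept it, and Celf4 (-1.83 points for HOM minus WT, -0.174 for HOM minus HET), Rara (-1.61) and Commd1 (0.780) changed sign. The mean over CpGs kept 66 of 74 calls and scaling 72 of 74. In the other cases the cause was not tested.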
